A study of Mus musculus with 4 samples.

Results

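Lipoprotein genes of the visceral endoderm were followed through ribosome footprints of differentiating mouse embryonic stem cells. The 8 genes are Apob, Mttp, Apoa1, Apoa2, Apoa4, Apoc2, Apom and Apoe, taken by symbol out of 20716 genes of a footprint table, and all 8 were found, in 9 of its 27442 coding-sequence entries. Lipids travel between tissues in particles that are wrapped in apolipoproteins, which give the particle its shape, activate enzymes that work on it and are recognised by receptors. The liver and intestine are the main sources in the adult. Before they form, the visceral endoderm, the extraembryonic epithelium that later lines the yolk sac, takes up maternal lipid and passes it to the embryo in particles built on apolipoprotein B. Loss of Apob or Mttp is lethal to the mouse embryo.

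Footprints had been collected from Mettl3-KO embryoid bodies (EBs), WT EBs, Mettl3-KO embryonic stem cells (ESCs) and WT ESCs of the C57BL/6 strain, with 1 library for each of the 4 groups. EBs are free-floating aggregates in which such cells differentiate into derivatives of the germ layers and into endoderm of the yolk sac type. The ESCs had been kept in the naive state with LIF and inhibitors of MEK and GSK3, and the EBs had been cultured in serum without attachment; the sources used here give neither the day on which each EB library was made nor whether a line is 1 clone. Mettl3 is the catalytic subunit of the enzyme that methylates adenosines within mRNA.

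A ribosome footprint is the stretch of mRNA that a translating ribosome shields from nuclease, so mRNA abundance and ribosome density both enter a footprint count. Reads on coding sequences numbered 4075850 in KO EBs, 4234361 in WT EBs, 11455539 in KO ESCs and 8570204 in WT ESCs, between 27.9% and 33.4% of the reads in the table. Values are read counts that the authors divided by 1 size factor per library, called normalised counts here, and 1 read was worth between 0.533 and 1.56 of them. Mettl3 itself stood at 327 in KO EBs, 429 in WT EBs, 298 in KO ESCs and 563 in WT ESCs; the sources used here do not describe the altered allele, so these footprints are no check of the knockout. The Y-linked genes Kdm5d, Ddx3y, Uty and Eif2s3y together had 45 reads in KO EBs and 10 in WT EBs. They had 2761 in KO ESCs and 568 in WT ESCs, so in this sum both EB libraries stood apart from both ESC libraries. The ESC libraries differed as well: Kdm5d had 396 reads in KO ESCs and 2 in WT ESCs. Ddx3y, Uty and Eif2s3y were 5.89-fold, 3.42-fold and 1.58-fold higher in KO ESCs than in WT ESCs. Whether the EBs were made from the same lines as the ESC libraries was not tested, and between EBs and ESCs the stage and a difference of lines cannot be told apart. With 1 library per group none can be left out, no difference has a replicate check, no p-value is given for a pair of libraries, and the Mettl3 genotype and other differences between the lines or cultures cannot be told apart. Bracketed ranges are 95% intervals of counting error only.

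The promoter stretches of 4 of the genes are shown because these genes cover the range of behaviour described below: Apob differed most between KO and WT EBs, Apoa2 was the gene with the smallest difference among those that were lower, and Apoc2 and Apoe lie in the same gene cluster and parted in KO EBs. Each is the 250 bases before the transcription start in RefSeq's annotation of GRCm38.p6, the assembly also called mm10, written 5′ to 3′ on the strand of the gene. Capitals mark every match to 4 short motifs, which were searched on both strands. The Apoc2 stretch overlaps the neighbouring apolipoprotein gene Apoc4 on the same strand. The Apoc4 transcript ends at 19678084 and its coding sequence at 19678147, so the first printed bases are the end of that coding sequence.
Apob, chr12:7977427-7977676, plus strand: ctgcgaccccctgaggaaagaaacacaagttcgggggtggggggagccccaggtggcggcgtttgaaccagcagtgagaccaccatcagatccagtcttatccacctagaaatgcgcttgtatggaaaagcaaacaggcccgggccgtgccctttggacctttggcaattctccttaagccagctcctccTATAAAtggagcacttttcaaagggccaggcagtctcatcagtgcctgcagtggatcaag
Apoa2, chr1:171224804-171225053, plus strand: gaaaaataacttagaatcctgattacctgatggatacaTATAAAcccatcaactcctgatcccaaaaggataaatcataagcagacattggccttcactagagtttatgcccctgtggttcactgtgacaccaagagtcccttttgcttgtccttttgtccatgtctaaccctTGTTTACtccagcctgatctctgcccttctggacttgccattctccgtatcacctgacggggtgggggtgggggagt
Apoc2, chr7:19677942-19678191, minus strand: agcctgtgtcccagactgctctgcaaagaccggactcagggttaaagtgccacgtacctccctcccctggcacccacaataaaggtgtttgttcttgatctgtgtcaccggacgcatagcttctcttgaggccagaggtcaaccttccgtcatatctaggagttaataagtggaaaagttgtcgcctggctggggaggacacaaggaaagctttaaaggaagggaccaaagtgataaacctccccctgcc
Apoe, chr7:19699189-19699438, minus strand: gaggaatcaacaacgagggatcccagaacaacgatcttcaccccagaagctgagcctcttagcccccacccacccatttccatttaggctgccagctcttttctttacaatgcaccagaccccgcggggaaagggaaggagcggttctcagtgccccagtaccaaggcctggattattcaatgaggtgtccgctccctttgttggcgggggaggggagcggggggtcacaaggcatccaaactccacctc

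The motifs were CAAAGTC, the core of the element bound by HNF4, AGATAAG for GATA factors, TGTTTAC for FOXA factors and the TATA box TATAAA. All 8 genes had a window, which ran from 250 bases before to 50 bases after the start. TGTTTAC occurred in Apoa2, 77 bases before the start. TATAAA occurred in Apob, 60 bases before the start, and in Apoa2, 212 bases before it. CAAAGTC and AGATAAG occurred in none of the 8 windows. Of all 32851 promoter windows, 4.4% held CAAAGTC, 3.0% AGATAAG, 3.6% TGTTTAC and 13.6% TATAAA. The matches did not overlap each other, and they describe letters in the windows. The Mttp window, which belongs to 1 of its 2 entries, held the most CpG dinucleotides of the 8, at 27. There were 1 in Apoa4, 3 in Apoa2, 4 in Apoa1, 7 in Apoc2, 9 each in Apob and Apom and 10 in Apoe. The median over all windows was 7, and 85.8% of all windows held no more than the Mttp window.

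Apob encodes the scaffold protein of chylomicrons and very-low-density lipoproteins, of which each particle carries a single copy. Its entry (NM_009693, chromosome 12, 7977677 to 8016839, plus strand) has 13518 coding bases in 29 exon blocks. Apob stood at 361 in KO EBs, 12038 in WT EBs, 17.6 in KO ESCs and 17.1 in WT ESCs, from 242, 7724, 33 and 22 reads in that order. The WT EB library thus lay far above the other 3, KO EBs came next, and the 2 ESC libraries were alike.

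Mttp encodes the microsomal triglyceride transfer protein, which loads lipid onto apolipoprotein B while it is still being made in the endoplasmic reticulum. Mttp stood at 5.97 in KO EBs, 74.8 in WT EBs, 1.07 in KO ESCs and 2.34 in WT ESCs, from only 4, 48, 2 and 3 reads. It had the order of Apob in the EBs at much lower depth, and with a mean of 21.0 it was the member that did not reach the mean of 25 over the 4 libraries that a gene needed to enter the counts below (a tested gene). Mttp (chromosome 3, 138089855 to 138143418, minus strand) is also the member with 2 deposited entries, and a read that lies on both is ambiguous to HTSeq, the authors' counting tool, whose ambiguous reads the table lists apart from the genes. NM_001163457 has 2730 coding bases, of which 106 are not shared with the other entry, and it carried every Mttp read. NM_008642 has 2685 coding bases, 61 of them unshared, and had 0 reads in all 4 libraries. The unshared stretches are shown because only reads on them can be assigned to 1 of the entries, and each begins at its own start codon, set in capitals, in GRCm38.p6.
Mttp NM_001163457, chr3:138134000-138134105, minus strand: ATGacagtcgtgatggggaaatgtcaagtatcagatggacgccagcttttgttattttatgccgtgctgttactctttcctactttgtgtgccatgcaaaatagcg
Mttp NM_008642, chr3:138131240-138131300, minus strand: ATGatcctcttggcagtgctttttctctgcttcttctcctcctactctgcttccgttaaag

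Apoa1, Apoa2 and Apoa4 encode proteins of high-density lipoproteins. Apoa1 is the main structural protein of these particles and activates the enzyme that esterifies their cholesterol. Apoa1 (NM_009692, chromosome 9, 46228630 to 46230469, plus strand) stood at 155 in KO EBs, 3116 in WT EBs, 9.60 in KO ESCs and 3.11 in WT ESCs, from 104, 1999, 18 and 4 reads. Apoa4 (NM_007468, chromosome 9, 46240844 to 46243458, plus strand), whose protein is also carried on chylomicrons, stood at 26.9 in KO EBs and 745 in WT EBs, from 18 and 478 reads. In ESCs it had 0 reads in KO and 1 in WT, where the floor of 3 reads is worth 1.60 in KO ESCs and 2.34 in WT ESCs. Apoa4 was under this floor in both ESC libraries and Apoa1 had at most 18 reads in them, and both genes were by far highest in WT EBs. Apoa2 (NM_013474, chromosome 1, 171225054 to 171226379, plus strand), another structural protein of high-density lipoproteins, did not share this and was already measurable in ESCs. Apoa2 stood at 89.6 in KO EBs, 457 in WT EBs, 69.9 in KO ESCs and 149 in WT ESCs, from 60, 293, 131 and 191 reads.

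Apoc2 activates lipoprotein lipase, the enzyme that releases fatty acids from circulating particles. Apoc2 (NM_001277944, chromosome 7, 19671579 to 19677941, minus strand) stood at 74.6 in KO EBs, 670.2 in WT EBs, 29.3 in KO ESCs and 16.3 in WT ESCs, from 50, 430, 55 and 21 reads. Apom is a lipocalin that carries sphingosine-1-phosphate on high-density lipoproteins. Apom (NM_018816, chromosome 17, 35128997 to 35131801, minus strand) stood at 98.5 in KO EBs, 966 in WT EBs, 45.3 in KO ESCs and 16.3 in WT ESCs, from 66, 620, 85 and 21 reads. Both had the same order of libraries, with WT EBs highest, KO EBs next, then KO ESCs and WT ESCs lowest.

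Apoe is a ligand through which cell-surface receptors take up lipoprotein remnants, and it is made by many cell types. Apoe (NM_009696, chromosome 7, 19696244 to 19699188, minus strand) stood at 14998 in KO EBs, 12708 in WT EBs, 5028 in KO ESCs and 7066 in WT ESCs, from 10048, 8154, 9425 and 9079 reads. It was abundant in every library, and its highest value was that of KO EBs. None of the 28-nt windows of the 8 coding sequences had an identical copy elsewhere in the genome; copies with mismatches were not searched.

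**Figure D1:**
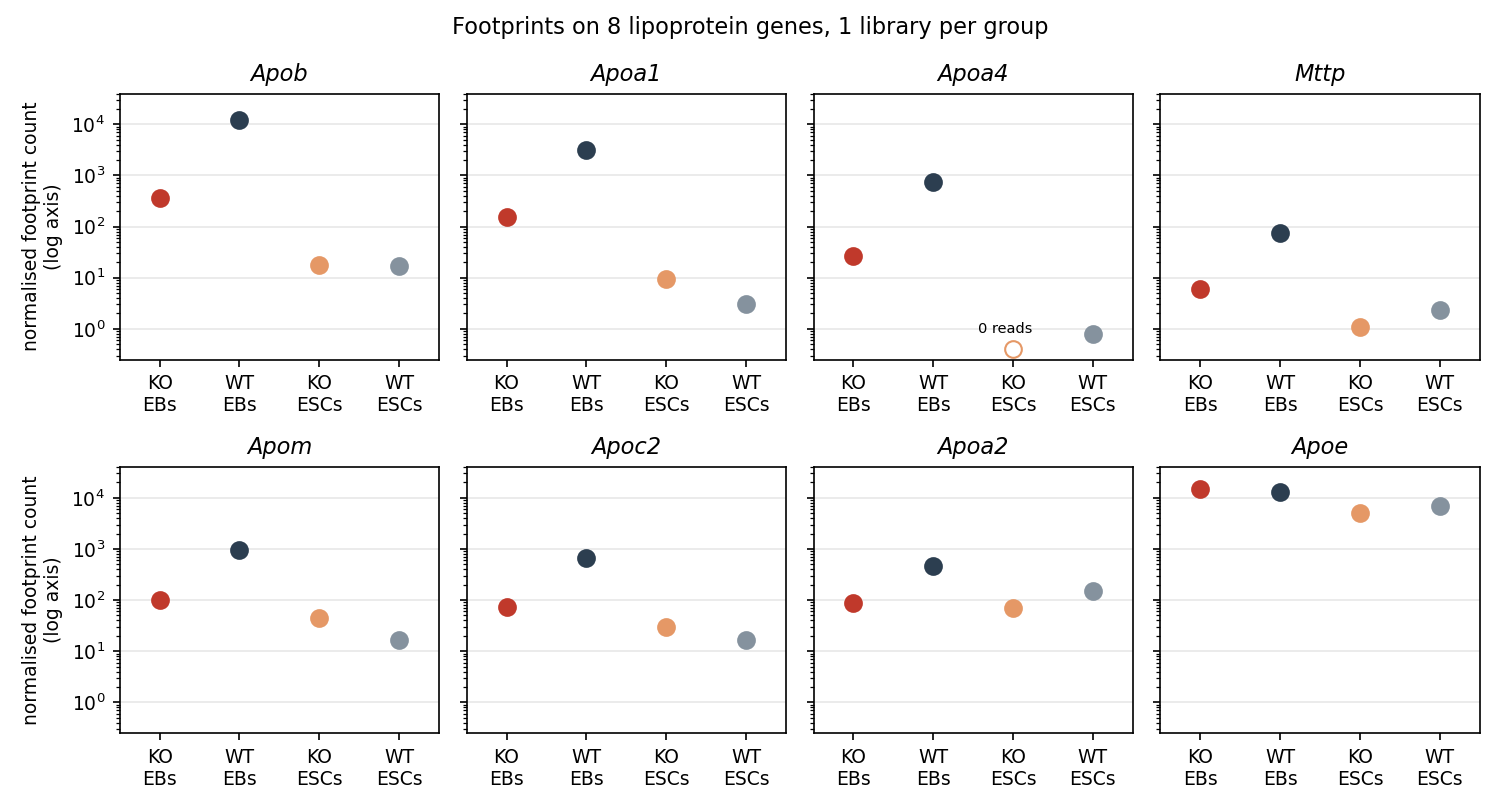
Normalised footprint counts of the 8 genes (log axis), 1 point per library, for KO EBs, WT EBs, KO ESCs and WT ESCs from left to right in each panel. WT EBs are the highest point for every gene except Apoe, whose 4 points lie between 5028 and 14998; the open point is the 0 reads of Apoa4 in KO ESCs.

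Between KO and WT EBs, every member except Apoe was lower in the KO library, to between 3.00% and 19.6% of WT. Of the 7 members that passed the filter, 6 were lower by 2-fold or more and 0 higher by as much, while 12.2% of all 9670 tested genes were lower and 15.2% higher by that limit. The members' median log2 fold was −3.28 and that of all tested genes −0.07. The members had been chosen with results of these data known, so the count describes them and is no independent support for their direction. Apoa4 also passed the filter only through WT EBs, at 745 there. As these are footprints of bulk samples, fewer visceral endoderm cells, less RNA per cell and fewer ribosomes per mRNA cannot be told apart.

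The largest difference was that of Apob, which was 33.3-fold lower in KO EBs (29.3 to 38.0). Apoa4 was 27.7-fold lower (17.4 to 47.2) and Apoa1 20.1-fold lower (16.5 to 24.7). Mttp, below the filter, was 12.5-fold lower with a wide interval (4.59 to 47.8). Apom and Apoc2 formed a pair of similar size: Apom was 9.81-fold lower (7.60 to 12.8) and Apoc2 8.98-fold lower (6.69 to 12.3), with overlapping intervals. Apoa2 was 5.10-fold lower (3.85 to 6.85). Apoe was 1.18-fold higher in KO EBs (1.15 to 1.22), a log2 fold of 0.24, within the 2-fold limit. All 8 intervals lay on 1 side of equality, 7 below it and that of Apoe above it, by counting error alone.

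The makeup of the members' translation therefore differed between the EB libraries. Levels of different genes were set side by side per kilobase of coding sequence and over the 7 members other than Mttp, whose level on that scale depends on the bases counted: in WT EBs it was 448 over the 167 unshared bases of both entries and 706 over the 106 bases of the entry with reads. Per kilobase, Apoe held 94.3% of the summed value of these 7 genes in KO EBs and 55.5% in WT EBs, and it held 92.8% in KO ESCs and 93.0% in WT ESCs. Apoa1 held 1.15% in KO EBs and 16.0% in WT EBs. Apoc2 held 1.49% in KO EBs and 9.32% in WT EBs, and Apom 1.01% in KO EBs and 6.90% in WT EBs. Apob, the longest gene, held 0.157% in KO EBs and 3.64% in WT EBs on this scale, whereas of the 8 members' normalised counts, with no division by length, it held 2.28% in KO EBs and 39.1% in WT EBs. The order of levels per kilobase in WT EBs was Apoe at 13577, Apoa1 at 3919, Apoc2 at 2279, Apom at 1686, Apoa2 at 1478, Apob at 891 and Apoa4 at 627. Each was apart from the next by counting error except Apom and Apoa2, whose ratio was 1.14 (0.991 to 1.32). In KO EBs Apoe stood at 16024 per kilobase, followed by Apoa2 at 289.8, Apoc2 at 254, Apoa1 at 195 and Apom at 172, and neighbours among these 4 were not apart. Apob at 26.7 and Apoa4 at 22.6 came last and were not apart either. Apoa1, the gene next to Apoe in WT EBs, thus came after Apoa2 and Apoc2 in KO EBs, though within counting error of Apoc2.

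In ESCs the same scale put Apoe first, at 5371 per kilobase in KO ESCs and 7549.7 in WT ESCs, and Apoa2 next, at 226 and 481. Apoc2 followed at 99.8 in KO ESCs and 55.6 in WT ESCs, and Apom at 79.1 and 28.5; Apoc2 and Apom were not apart in KO ESCs. Apoa1 lay at 12.1 in KO ESCs and 3.92 in WT ESCs, Apob at 1.30 and 1.27, and Apoa4 at 0 and 0.655. Apoa1 was apart from Apob in KO ESCs, with a ratio of 9.27 (4.92 to 17.0), and these genes were otherwise not apart from their neighbours among the 3.

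The EB libraries were then compared with the ESC libraries of each genotype, which also differed in Y-linked reads. Between WT EBs and WT ESCs, 6 of the 7 tested members were at least 2-fold higher in EBs and 0 lower, against 11.0% and 8.25% of all tested genes, with a median log2 fold of 5.80 (−0.02 over all genes). The genes fell into tiers. Apoa1 was 1001-fold higher in WT EBs (390.2 to 3676), Apoa4 957-fold (171 to 37883) and Apob 703-fold (464 to 1122), with overlapping intervals. Apom was 59.1-fold higher (38.3 to 96.2), Apoc2 41.0-fold (26.5 to 66.9) and Mttp 32.0-fold (10.3 to 161). Apoa2 was 3.07-fold higher (2.55 to 3.71) and Apoe 1.80-fold (1.75 to 1.85).

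In KO cells, too, 6 of the 7 tested members were higher in EBs by 2-fold or more and 0 lower, against 9.31% and 6.65% of all tested genes, but the median log2 fold was 1.58 (−0.08 over all genes). In KO EBs Apob was 20.5-fold above its KO ESC level (14.2 to 30.5) and Apoa1 16.2-fold (9.74 to 28.3). Apoa4, with 0 reads in KO ESCs, stood 16.8-fold above the floor of 3 reads in that library, and the interval of its ratio began at 12.3. Apoc2 was 2.54-fold higher (1.70 to 3.80) and Apom 2.17-fold (1.55 to 3.03). With a pseudocount of 10 Apom lost its place past the 2-fold limit (log2 fold 0.97), which leaves 5 members. Apob, Apoa1, Apoc2 and Apom thus stood above their ESC levels in KO EBs too, by less than in WT EBs. Mttp had 4 reads in KO EBs and 2 in KO ESCs, a ratio of 5.60 (0.802 to 61.9). Apoa2 was 1.28-fold higher, with an interval that includes equality (0.928 to 1.75). Apoe was 2.98-fold higher (2.90 to 3.07), so it was the member whose EB level exceeded the ESC level by more in KO than in WT.

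The 2 stage comparisons were then set against each other gene by gene. The EB change in KO minus that in WT was −1 or lower on the log2 scale for 6 of the 7 tested members and 1 or higher for 0, against 12.5% and 11.4% of all tested genes, with a median of −3.96 (−0.08 over all genes). It was −5.68 for Apoa1, −5.09 for Apob, −4.70 for Apom, −3.96 for Apoc2, −3.91 for Apoa4 and −1.26 for Apoa2. The value of Apoa4 depends on the pseudocount, since KO ESCs had 0 reads. Apoe had the opposite sign, 0.73. As a ratio of ratios, the EB change of Apoa1 was 61.9 times smaller in KO (20.6 to 186), that of Apob 34.3 times (19.7 to 59.6), that of Apom 27.2 times (15.8 to 46.7) and that of Apoc2 16.1 times (9.01 to 28.8).

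Expressed as an absolute gain in normalised count, KO cells made a small share of the WT gain for all members except Apoe. Apob gained 344 in KO and 12021 in WT, a share of 2.86% (2.47 to 3.25). The share was 3.61% for Apoa4 (1.91 to 5.31), 4.68% for Apoa1 (3.69 to 5.67), 5.60% for Apom (2.86 to 8.33) and 6.93% for Apoc2 (3.48 to 10.4). For Apoa2, with 6.39% (−2.01 to 14.8), and Mttp, with 6.77% (−1.80 to 15.3), the interval includes 0. The 7 shares thus lay between 2.86% and 6.93%, and the interval of Apob was apart from those of Apoa1 and Apoc2. The fold differences of the same genes between KO and WT EBs ran between 5.10 and 33.3. Apoe gained 9971 in KO and 5642 in WT, a share of 177% (166 to 188).

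**Figure D2:**
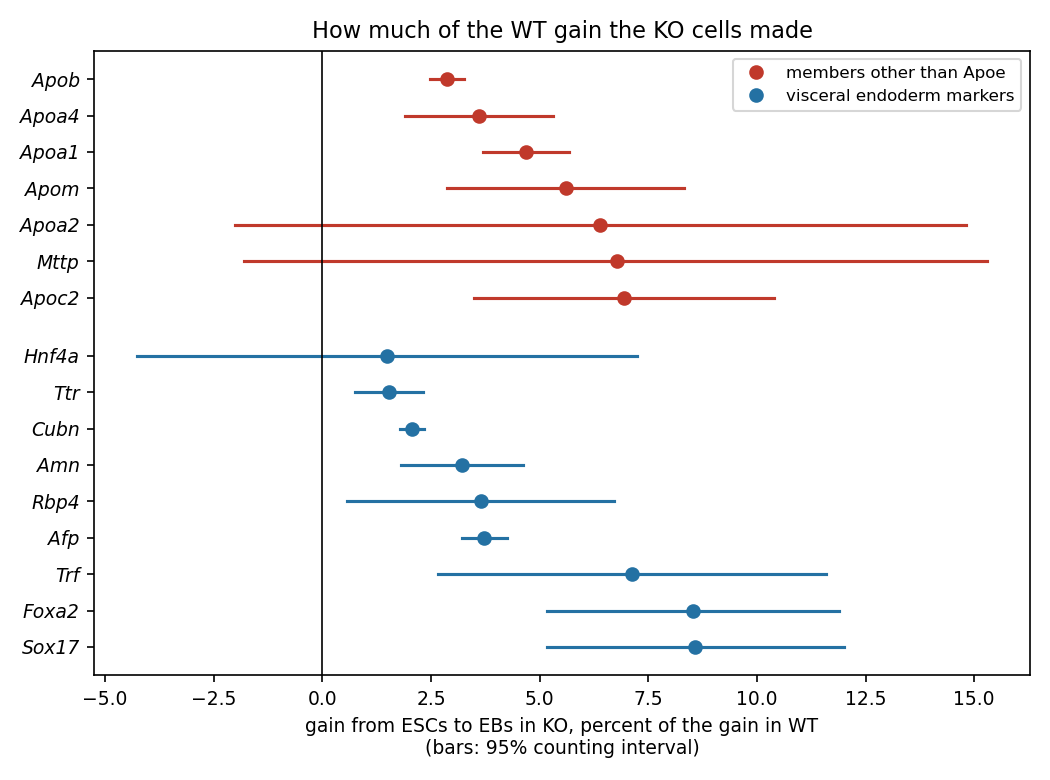
Gain in normalised count between ESCs and EBs in KO cells, as percent of the gain in WT cells, for the 7 members other than Apoe and for 9 markers of visceral endoderm; bars are 95% counting intervals. The members lie between 2.86% and 6.93% and the markers between 1.48% and 8.58%; Apoe, at 177%, is off this scale.

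In ESCs the KO and WT libraries differed in both directions. Of the 7 tested members, Apom and Apoa1 were at least 2-fold higher in KO ESCs and Apoa2 at least 2-fold lower, against 10.6% and 4.42% of all tested genes, and the median log2 fold was 0.04 (−0.00 over all genes). Apom was 2.77-fold higher in KO ESCs (1.70 to 4.71) and Apoc2 1.79-fold higher (1.07 to 3.12). Apoa1 was 3.08-fold higher, but with 18 reads in KO and 4 in WT its interval reached 1.02 (1.02 to 12.5). Apoa2 was 2.13-fold lower in KO ESCs (1.69 to 2.68) and Apoe 1.41-fold lower (1.37 to 1.45). Apob had a ratio of 1.03, with an interval that includes equality (0.582 to 1.85), and Mttp with 2 and 3 reads had a ratio of 0.457 (0.0382 to 3.99). Scaling the libraries to equal gene totals moved the median log2 fold of all genes by 0.13 in ESCs and 0.12 in EBs, and put Apoa2 inside the 2-fold limit in ESCs.

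**Figure D3:**
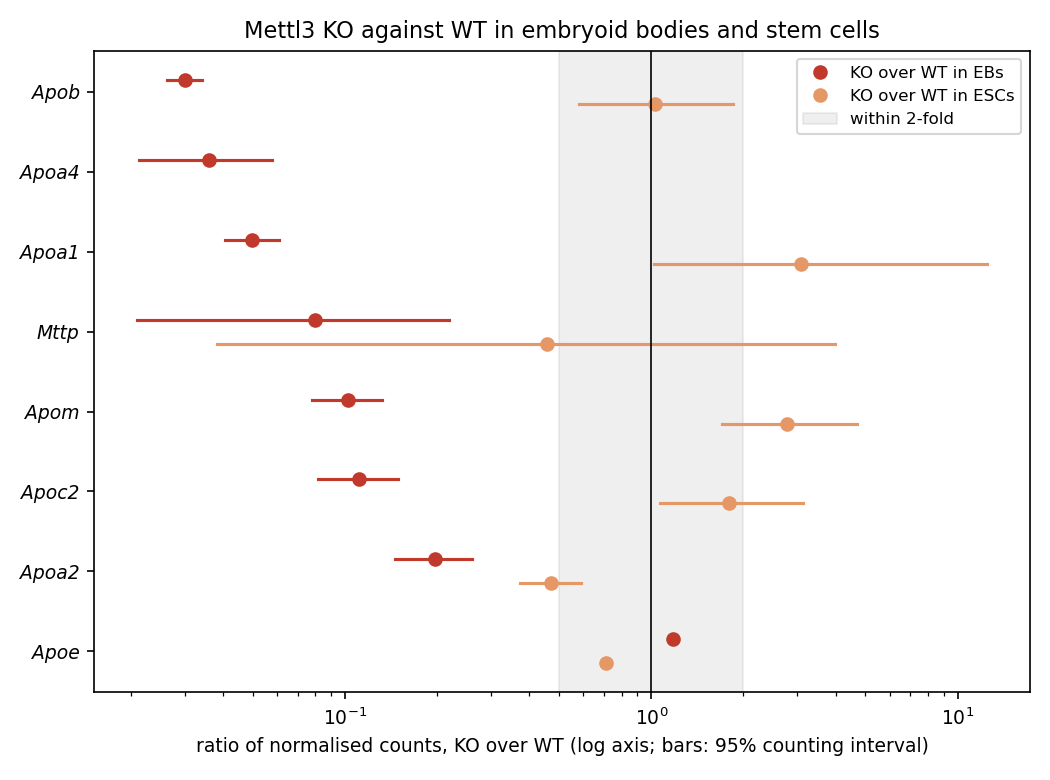
Ratio of normalised counts, KO over WT, in EBs (upper point of each gene) and ESCs (lower point), on a log axis with 95% counting intervals; the grey band is within 2-fold. In EBs 7 genes lie left of the band and Apoe inside it, while in ESCs the points lie on both sides of equality; Apoa4 has no point in ESCs because KO had 0 reads.

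Apoe and Apoc2 lie in a single cluster of apolipoprotein genes on chromosome 7, and their coding sequences are 22.8 kb apart. Although they are neighbours, Apoc2 was 8.98-fold lower in KO EBs and Apoe 1.18-fold higher. Apoc4, a minor apolipoprotein whose coding sequence lies between them, 4.5 kb from that of Apoc2 and 15.0 kb from that of Apoe, went with neither: it stood at 19.4 in KO EBs, 3.12 in WT EBs, 14.9 in KO ESCs and 4.67 in WT ESCs, from 13, 2, 28 and 6 reads. It was 6.23-fold higher in KO EBs (1.41 to 56.8) and 3.20-fold higher in KO ESCs (1.30 to 9.45), and it did not pass the filter. Apoc1, on the other side of Apoc4, and Tomm40 were listed at 0 in all libraries, and each has 2 entries with 0 unshared coding bases. Clptm1, next to Apoc2, stood at 2830.1 in KO EBs, 2592 in WT EBs, 2033 in KO ESCs and 2576 in WT ESCs, and was 1.09-fold higher in KO EBs (1.02 to 1.17).

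The second cluster, on chromosome 9, holds Apoa1, Apoc3, Apoa4 and Apoa5. The coding sequences of Apoa1 and Apoa4 are 10.8 kb apart, and both genes were more than 20-fold lower in KO EBs. Apoc3, an inhibitor of lipoprotein lipase that lies between them, had 2 reads in KO EBs, 2 in WT EBs and 0 in both ESC libraries. Apoa5, an activator of that enzyme, had 0 reads in KO EBs and 6 in WT EBs. Its WT value was 2.09-fold the floor of 3 reads in KO EBs, and the interval of its KO to WT ratio reached 0.813. Among the genes on either side of the cluster, Zpr1 stood at 814 in KO EBs and 1022 in WT EBs, Bud13 at 573 in KO EBs and 544 in WT EBs, and Sik3 at 919 in KO EBs and 1007 in WT EBs. Within this cluster only Apoa1 and Apoa4 were both abundant in WT EBs and at least 2-fold apart between the EB libraries.

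**Figure D4:**
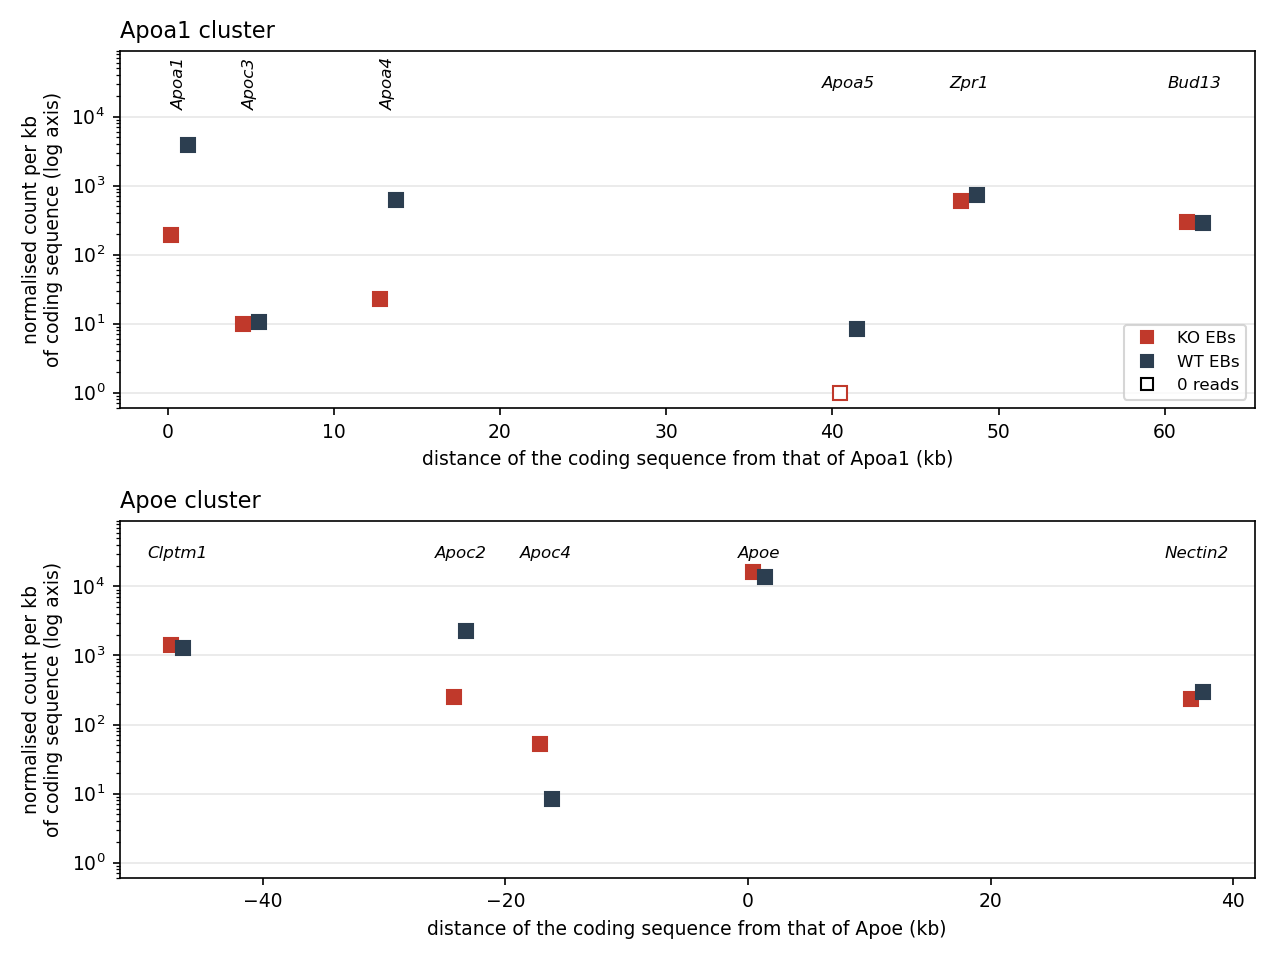
Normalised count per kilobase of coding sequence (log axis) in KO EBs and WT EBs for the genes of the Apoa1 cluster (top) and the Apoe cluster (bottom), placed by the distance of each coding sequence from that of Apoa1 or Apoe; the KO point is drawn left of the WT point. Apoa1, Apoa4 and Apoc2 have WT points far above the KO points, while Apoc4 has its KO point (51.7) above its WT point (8.31). Apoe and the outer genes drawn have both points close together. Sik3 and the genes at 0 in all libraries are left out.

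The genes of similar pattern were sought among 8110 other genes by the Euclidean distance between log2 profiles centred over the 4 libraries, which is a description with no test. Nearest to Apoa1 were Spink1, a secreted protease inhibitor (distance 0.85), and Ttr, a thyroid hormone carrier (1.12). Nearest to Apoa4 were Afp, the main serum protein of the fetus (0.46), and the membrane carbonic anhydrase Car4 (0.74), and nearest to Apob were Car4 (0.83) and Spink1 (0.88). Apoc2 lay nearest to Pla2g12b (0.13) and Lrp2 (0.16), and Apom to Pla2g12b (0.39) and to F3, which encodes tissue factor (0.40). Pla2g12b, a catalytically inactive member of the phospholipase family, stood at 32.8 in KO EBs, 316 in WT EBs, 12.3 in KO ESCs and 6.23 in WT ESCs. Mttp lay nearest to Bmper, a secreted regulator of BMP signalling (0.50), and to Gata4, a transcription factor of endoderm and heart (0.50). Apoa2 lay nearest to Sycp3, a protein of the meiotic chromosome axis (0.13), and to Pgap1, an enzyme of GPI anchor maturation (0.30), whose values were 219 in KO EBs, 1021 in WT EBs, 191 in KO ESCs and 439.8 in WT ESCs. Apoe lay nearest to the glucose transporter Slc2a1 (0.08), at 9822 in KO EBs, 8235 in WT EBs, 3129 in KO ESCs and 4329.9 in WT ESCs, and to the integrin Itgb3 (0.18). Among the members, the closest pairs were Apoc2 and Apom (0.47) and Apoa4 and Apob (0.66), and the most distant were Apoe and Apob (6.76). Distances of Apoa4 depend on the value of 1 added before the log, as it had 0 reads in KO ESCs and 1 in WT ESCs. Those of Mttp rest on few reads, with 4 in KO EBs, 48 in WT EBs, 2 in KO ESCs and 3 in WT ESCs.

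Other genes of lipoprotein biology were compared between KO and WT EBs as lists, and each list's counts are read beside the 15.2% of tested genes that were higher and the 12.2% that were lower. Among 15 genes of lipoprotein assembly and secretion, 12 were tested, 3 were at least 2-fold lower and 0 higher, with a median log2 fold of −0.54. The 3 lower genes make the neutral lipid that fills a particle and do not carry it through the secretory pathway. Soat2, which esterifies cholesterol, stood at 77.6 in KO EBs, 676 in WT EBs, 47.5 in KO ESCs and 73.9 in WT ESCs and was 8.71-fold lower in KO EBs (6.53 to 11.9). Dgat2, which makes triglyceride, stood at 38.8 in KO EBs, 237 in WT EBs, 79.5 in KO ESCs and 56.8 in WT ESCs and was 6.10-fold lower (4.01 to 9.64). Soat1, named after its values were seen, was 2.65-fold lower (2.42 to 2.90). Dgat1, the other triglyceride-forming enzyme, was 1.23-fold higher in KO EBs (1.01 to 1.50), and Tm6sf2 had 2 reads in KO EBs and 1 in WT EBs. P4hb, the subunit that holds the Mttp protein in the endoplasmic reticulum and also a general folding enzyme, was named for that role after its values were seen. P4hb stood at 6579.7 in KO EBs, 6519 in WT EBs, 4198 in KO ESCs and 6320.1 in WT ESCs, with a ratio of 1.01 in EBs (0.967 to 1.05). Mttp, read only on the unshared bases of 1 entry and below the filter, thus differed in pattern from its protein partner.

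Of 9 other apolipoproteins only Apod and Clu were tested, and they differed in opposite directions. Apod, a lipocalin, stood at 142 in KO EBs, 17.1 in WT EBs, 132 in KO ESCs and 95.7 in WT ESCs and was 8.27-fold higher in KO EBs (4.42 to 17.1). Clu, an extracellular chaperone also called apolipoprotein J, stood at 824 in KO EBs, 3271 in WT EBs, 455 in KO ESCs and 314 in WT ESCs and was 3.97-fold lower (3.61 to 4.37). Apoh had 4 reads in KO EBs and 0 in WT EBs. Apobec1, the enzyme that edits Apob mRNA to the short form, and its cofactor Rbm47 were listed at 0 throughout, with 0 unshared coding bases each. The other cofactor, A1cf, stood at 40.3 in KO EBs and 62.3 in WT EBs, a ratio whose interval includes equality (0.382 to 1.08).

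Genes of lipoprotein uptake split. Of 14, 10 were tested, 5 were at least 2-fold higher in KO EBs and 3 lower, with a median log2 fold of 0.46. The 3 lower genes encode the endocytic complex at the apical face of visceral endoderm. Cubn stood at 331 in KO EBs, 15999.9 in WT EBs, 3.20 in KO ESCs and 39.7 in WT ESCs and was 48.3-fold lower in KO EBs (42.3 to 55.4). Its partner Amn was 19.5-fold lower (15.1 to 25.8), and Lrp2, or megalin, was 10.0-fold lower (9.38 to 10.8). Lrp1, a receptor for remnants carrying apolipoprotein E, stood at 4853 in KO EBs, 1319 in WT EBs, 2145 in KO ESCs and 2021 in WT ESCs and was 3.68-fold higher (3.41 to 3.97). Sorl1 was 3.58-fold higher (3.30 to 3.89), and Scarb1 and Lrp8 were also higher by 2-fold or more. Vldlr, Lsr and Dab2 were listed at 0 in every library and have 2 or more entries each that share coding bases.

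Of 15 genes of cholesterol efflux and particle remodelling, 9 were tested, 3 were at least 2-fold higher in KO EBs and 0 lower, with a median of 0.80. Abca1, the transporter that loads cholesterol onto apolipoprotein A1, stood at 1218 in KO EBs, 351 in WT EBs, 571 in KO ESCs and 1129 in WT ESCs and was 3.47-fold higher in KO EBs (2.99 to 4.04). Its acceptor Apoa1 was 20.1-fold lower in the same library. Lpl, the lipase that the Apoc2 protein activates, stood at 236 in KO EBs, 84.2 in WT EBs, 614 in KO ESCs and 386 in WT ESCs and was 2.80-fold higher (2.05 to 3.89), and Lipc was the other gene that was higher. Npc1 was 1.30-fold lower (1.21 to 1.38), Abcg5 had 0 reads in KO EBs and 2 in WT EBs, and Lcat had 4 and 0.

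**Figure D5:**
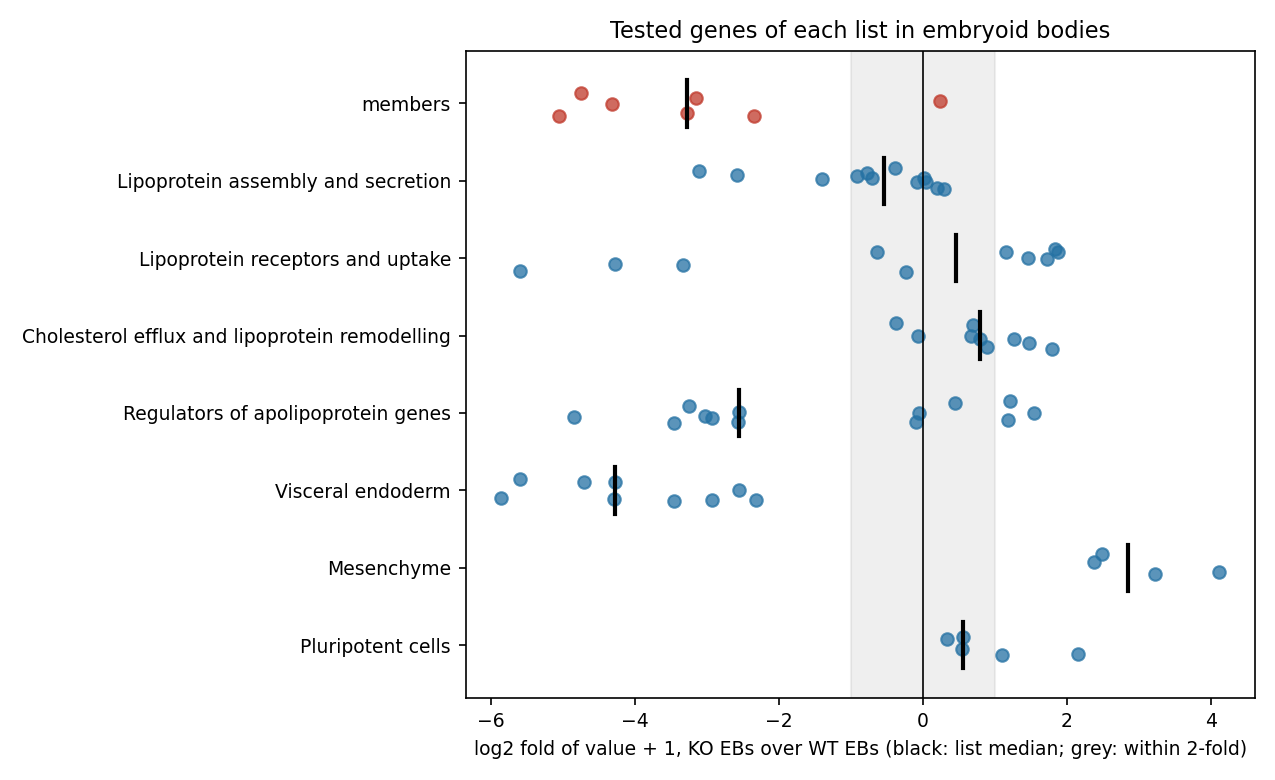
Log2 fold of value + 1, KO EBs over WT EBs, for the tested genes of each list (points) with the list median (black bar); the grey band is within 2-fold. The members (median −3.28), the regulators (−2.55) and the visceral endoderm markers (−4.27) lie mostly to the left, the assembly genes (−0.54) mostly within the band, and the mesenchyme markers (2.85) to the right. Foxa2, Sox17 and Hnf4a are drawn as both regulators and visceral endoderm markers, and Cubn and Amn as both uptake genes and markers.

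Among 22 transcription factors and nuclear receptors that act on apolipoprotein genes, 13 were tested, 7 were lower in KO EBs by 2-fold or more and 3 higher, with a median of −2.55. The lower genes included Foxa2, Gata4, Foxa3, Sox17, Gata6 and Hnf4a, all transcription factors of endoderm. Some of the lower genes, such as Foxa2 and Foxa3, passed the filter only through WT EBs, which nearly fixed their direction. Foxa2 was 11.2-fold lower (7.70 to 16.9). Hnf4a, a nuclear receptor required for the secretory genes of visceral endoderm, stood at 67.2 in KO EBs, 399 in WT EBs, 61.3 in KO ESCs and 6.23 in WT ESCs, from 45, 256, 115 and 8 reads. This put Hnf4a 5.94-fold lower in KO EBs (4.31 to 8.35) but 9.85-fold higher in KO ESCs (4.84 to 23.4), where Apob had a ratio of 1.03. The higher genes included Cebpa, at 2.99-fold (1.68 to 5.63), and Rxra, at 2.28-fold (1.88 to 2.76). Nr2f2 had 42 reads in KO EBs and 11 in WT EBs and did not pass the filter, and Nr2f1 had 7 and 0.

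The name of the gene group was checked against markers of visceral endoderm. Of 10 markers 9 were tested, and all 9 were lower in KO EBs by 2-fold or more, against 12.2% of all tested genes. The median log2 fold of the 9 was −4.27. Ttr, Rbp4 and Foxa2 passed the filter only through WT EBs, where they stood at 1612, 337 and 502. Passing thus nearly fixed their direction, and the count is no independent support for the name. Cubn and Amn were also among the uptake genes above, and Foxa2, Sox17 and Hnf4a among the regulators, so these lists overlap. The summed value of the markers was 1199 in KO EBs, 30991 in WT EBs, 280.1 in KO ESCs and 209 in WT ESCs. Dab2 was at 0. In KO cells Afp made 3.73% of its WT gain, Cubn 2.06%, Ttr 1.53% and Foxa2 8.54%, a range that takes in 7 of the 8 members. Apoe lay outside it, at 177%, so the name does not describe Apoe in these libraries. The intervals of Apoa2 and Mttp include 0. The range was not particular to visceral endoderm. It also took in the parietal marker Lama1 (2.16%), the gut marker Vil1 (1.91%) and the glial marker Slc1a3 (4.59%). Other markers of those types lay outside it, such as Col4a1 (16.7%) and Cdx2 (30.6%). Apoa2 also differed in other ways, being at 149 in WT ESCs already and 3.07-fold higher in WT EBs. Its pattern was nearer to Apoe (distance 1.88) than to Apoa1 (6.16) or Apob (6.20). This order was not particular to Apoa2. Apoc2 lay at 3.31 from Apoe, 3.55 from Apoa1 and 3.82 from Apob, and Mttp at 3.24, 3.93 and 3.90. Hepatocyte and gut markers summed to 37.3 in KO EBs, 354 in WT EBs, 19.2 in KO ESCs and 24.1 in WT ESCs, with 1 of 8 tested. The defining hepatocyte gene Alb was at 0 in all 4 libraries, while Fabp1 had 0 reads in KO EBs and 32 in WT EBs. Vil1 was 18.1-fold lower in KO EBs (9.29 to 40.3), and it passed the filter only through WT EBs, at 243 there.

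Markers of other cell types also differed between the EB libraries, and their part in the results was not tested. Their counts are read beside the 12.2% of all tested genes that were lower in KO EBs and the 15.2% that were higher. Parietal endoderm markers summed to 16172 in KO EBs, 69933 in WT EBs, 8445 in KO ESCs and 10255 in WT ESCs, and 5 of the 7 tested were lower in KO EBs by 2-fold or more. Mesenchyme markers summed to 5256 in KO EBs, 828 in WT EBs, 1793 in KO ESCs and 325 in WT ESCs, with all 4 tested genes at least 2-fold higher in KO EBs and Pdgfra, Pdgfrb, Postn and Dcn at 0 everywhere; these 4 have 2 or 3 entries each that share most or all of their coding bases. All 4 tested mesenchyme genes were also at least 2-fold higher in KO ESCs than in WT ESCs, against 10.6% of all tested genes. In EBs the parietal markers thus went the way of the 7 lower members and the mesenchyme markers the opposite way. Pluripotency markers summed to 17179 in KO EBs, 11019 in WT EBs, 12945 in KO ESCs and 18706 in WT ESCs, and 2 of 5 tested were at least 2-fold higher in KO EBs. None of these sums differed as much between the EB libraries as that of the visceral endoderm markers. For Apoe, which macrophages and glia also make, macrophage markers summed to 113 in KO EBs, 62.3 in WT EBs, 116 in KO ESCs and 85.6 in WT ESCs, with C1qb and C1qc at 0 throughout, and Ptprc too, which has 3 entries that share coding bases. Markers of neural progenitors and glia summed to 437 in KO EBs, 690.4 in WT EBs, 541 in KO ESCs and 908 in WT ESCs.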

How the data were processed

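Ribosome footprints of 1 library each of Mettl3-KO EBs, WT EBs, Mettl3-KO ESCs and WT ESCs were used, grouped by their titles. The tools named per the submitters' processing notes are HTSeq 0.6.0, TopHat2 2.0.10, DESeq, Bowtie and CASAVA 1.8.2, with build mm10; the sources used here give neither their settings nor the treatment of strand. For each RefSeq coding sequence the deposited table holds a normalised signal, made by the authors by dividing read counts by 1 factor per library. All values (100%) came out as whole reads within a tolerance of 0.01 once divided by the smallest step, and these reads were used for intervals. The deposited 5 summary entries that name no gene held 66.6% to 72.1% of reads and stayed out of library sizes.

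A RefSeq table of GRCm38.p6 gave symbols for 27083 of 27442 entries, which were summed per symbol. A gene was tested when its mean over the 4 libraries reached 25 (9670 genes). A gene could pass this filter through a single library in which it was high. With 1 library per group, a gene counted at 2-fold on log2(value + 1), a scale on which folds of low genes come out too small, and ratios of reads had 95% conditional exact binomial (Clopper-Pearson) intervals. Shares of gains had delta-method intervals from Poisson counts. A library at 0 was set to 3 reads for a fold against that floor, which leaves out the counting error of the other library. Every 28-nt window of a coding sequence was searched in both strands of the genome.

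The members, lists and rules were chosen with earlier results of these data known. Genes named are the members, up to 4 genes per list (the 2 highest and 2 lowest between KO and WT EBs), genes of the 2 clusters and the 2 genes nearest in pattern to each member with a largest value of at least 100; others are said to be named after their values were seen, or are markers or the remaining genes of a count. Some genes that this rule takes, and 1 motif, are not reported here. Alternatives were pseudocounts of 0.5, 10 and none, filters of 0 and 100, equal gene totals and the highest entry per symbol. Added after seeing the data, edgeR 4.0.16 (quasi-likelihood) and DESeq2 1.42.0 were fitted to the recovered reads with stage and genotype as additive terms, which leaves 1 residual degree of freedom. Both were tested on simulated data that held a stage effect alone, so a KO effect, or one that differs between the stages, was not covered. Python 3.11.15, pandas 2.3.3, SciPy 1.17.1, pysam 0.24.0 and R 4.3.3 were used.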

Additional observations from a re-analysis of the deposited data

Results flagged for a closer look

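For 4 genes the KO library lay on opposite sides of the WT library in EBs and in ESCs, each by more than counting error. Apob also had opposite signs, −5.05 and 0.04, but its ESC ratio of 1.03 was within counting error (0.582 to 1.85). This difference between the stages was not tested, since each group has 1 library. The log2 fold of Apoa1 was −4.32 in EBs and 1.37 in ESCs, where it rests on 18 reads in KO and 4 in WT. The log2 fold of Apom was −3.28 in EBs and 1.42 in ESCs, and that of Apoc2 −3.15 in EBs and 0.81 in ESCs, so that this pair was lower in KO EBs and higher in KO ESCs. Apoe showed the reverse order, with 0.24 in EBs and −0.49 in ESCs.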

How the results depend on the processing

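Over the pseudocounts, filters, scaling and choice of entry tried, no log2 fold of a member changed sign except that of Apoa4 in KO ESCs against WT ESCs, from 0 and 1 reads, which was −0.83 and became 1.04 with no pseudocount and the floor of 3 reads. In KO EBs against WT EBs 6 tested members stayed at least 2-fold lower (7 with no filter, which adds Mttp). In KO ESCs against WT ESCs the count of higher members was 1 with a pseudocount of 10 and 3 with no pseudocount, which adds Apoa4 at that floor, and that of lower members was 2 with a pseudocount of 0.5, 0 with a pseudocount of 10 and 0 with equal gene totals. Equal totals moved Apoe to 0.36 in EBs and −0.36 in ESCs.

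Over all genes, no filter (14376 genes) gave 3100 higher and 2096 lower in KO EBs against WT EBs, 2090 and 1087 in KO ESCs against WT ESCs, 2192 and 1821 in WT EBs against WT ESCs, 2096 and 1475 in KO EBs against KO ESCs, and 2602 and 2353 for the difference of EB changes. A mean of at least 100 (7482 genes) gave 810 higher in KO EBs against WT EBs, 515 higher and 209 lower in KO ESCs against WT ESCs, 568 and 397 in WT EBs against WT ESCs, 456 and 376 in KO EBs against KO ESCs, and 612 and 742 for the difference. These filters change the number of genes tested.

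On recovered reads, edgeR's comparison of EBs with ESCs called 20 genes higher and 5 lower, where DESeq2 called 274 and 101. Between KO and WT, edgeR called 0 (1556 at an unadjusted p under 0.05) and DESeq2 251 higher and 71 lower. For Apoa4 the stage log2 fold was 9.48 and edgeR's adjusted p 0.0165; the other 6 tested members had edgeR adjusted p-values between 0.0990 and 0.449. DESeq2's adjusted p for stage was 6.96e-12 for Apoa4, 0.000520 for Apoc2, 0.00415 for Apob, 0.00978 for Apoe and 0.0135 for Apoa1, and 0.390 for Apom and 0.521 for Apoa2. For genotype Apoa4 had a log2 fold of −4.66, an adjusted p of 0.0983 by edgeR and 5.71e-06 by DESeq2. The other 6 tested members had genotype adjusted p-values between 0.189 and 0.912 by edgeR and between 0.0618 and 0.947 by DESeq2. These models assume the same KO effect in ESCs and EBs. No paired analysis was possible because each group has 1 library, so no replicate numbers can pair them; the additive models compare the stages within each genotype. Depth limits Mttp, with 48 reads in WT EBs, and Apoa1 and Apoa4 in ESCs, with at most 18.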
